A study of Mus musculus with 6 samples.

Results

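The genes described here are 34 genes of glycolysis and the hypoxia response, chosen by symbol from textbook membership. They comprise 2 glucose transporters, 10 genes of upper and 8 of lower glycolysis, 3 that set the fate of pyruvate, 5 of oxygen sensing and the hypoxia-inducible factors (HIFs), and 6 other hypoxia response targets. All 34 were found among the 23233 gene lines of the deposited table and all 34 are among the 13430 lines that the authors tested. The study set whole guts of Ret null mouse embryos (homozygous for a null allele of the receptor tyrosine kinase Ret) against wildtype guts, with 3 samples each at stage E10.5. Every sample has the strain label C57BL/6J, the embryos are described as male, and neither the part of Ret that is missing nor the number of embryos behind a sample is given. The labels do not tie samples to litters or animals, so the authors' p-values may measure technical spread. For each genotype the authors' table has 1 FPKM value per gene, a count of fragments divided by transcript length and sequencing depth, so values below carry no spread between samples and no n. A gene is said to be called, to have risen or to have fallen where the q-value (adjusted p) in the authors' deposited table is under 0.05.

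Ret stood at 0.0354 FPKM in Ret null gut and 8.80 FPKM in wildtype gut. Xist, which is transcribed from the inactive X chromosome of female cells, stood at 31.8 FPKM in Ret null and 0.136 FPKM in wildtype gut, which goes against a male label for all of the Ret null tissue. The Y-linked Ddx3y stood at 10.6 FPKM in Ret null and 18.3 FPKM in wildtype gut. Markers of gut epithelium were present in both genotypes, and all 7 were called higher in Ret null gut, with a summed level of 281 FPKM against 132 FPKM in wildtype (Foxa2 and Shh stood at log2 fold changes of 2.42 and 1.39). Of 7 markers of gut mesenchyme and smooth muscle, 6 were called higher (summed 696 FPKM in Ret null, 282 FPKM in wildtype; Barx1 4.61 and Nkx2-5 2.14 on the log2 scale). All 10 hepatic markers were called higher (349 FPKM in Ret null, 33.8 FPKM in wildtype; Alb 7.39 and Afp 4.99). All 14 tested of 17 striated muscle markers were called lower (35.1 FPKM in Ret null, 304 FPKM in wildtype). Myh3 stood at -4.35 and Myl1 at -4.30 on the log2 scale. All 10 neuronal markers were called lower too (61.7 FPKM in Ret null, 169 FPKM in wildtype), with Chrna3 at -2.60. The 10 include Ret itself, whose fall was set by the design. Of 9 erythroid markers 3 were called lower and 4 higher (3827 FPKM in Ret null, 6247 FPKM in wildtype; Gata1 1.78 and Hbb-bh1 -1.54). Of 7 endothelial markers 3 were called lower and 0 higher (134 FPKM in Ret null, 163 FPKM in wildtype; Emcn -0.62 and Tek -0.47); at the authors' unadjusted Cuffdiff p under 0.05, 4 were lower and 0 higher, and none passed when p was read from the authors' test statistic as a standard normal deviate. Of all 13430 tested lines, 1814 were lower and 1331 higher at the authors' unadjusted Cuffdiff p under 0.05. None of the markers above is listed at 0 in either genotype. Their part in the results below was not tested.

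Glycolysis splits glucose into pyruvate in the cytosol and yields ATP without oxygen; lactate dehydrogenase then turns pyruvate into lactate, and midgestation embryos are known to use this route strongly. When oxygen is ample, prolyl hydroxylases of the Egln family mark the HIF alpha subunits for destruction through the Vhl ubiquitin ligase. When oxygen is short, the alpha subunits pair with Arnt and bind a short DNA element near their targets, among them most glycolytic genes, Vegfa and Egln3 itself.

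That element has the core ACGTG or GCGTG. Both cores were searched on both strands of RefSeq promoter windows running from 250 bases before to 50 after a gene's start (GRCm38.p6). The table holds 44 windows for 30 of the 34 genes and none for Slc2a3, Gm5506, Epas1 and Ndrg1. A match was in 35 of the 44 windows (79.5%), against 43.8% of all 32851 windows in the table. Counted by gene, 27 of the 30 had a match in at least 1 window (90%), against 46.7% of all 27025 genes. Genes were not matched on their number of windows. ACGTG alone was in 50% of the genes' windows and in 19.6% of all windows. Windows were not matched on base composition, and a match is not a site of binding. The windows of Gpi1, Eno2 and Tpi1 held none of these letters. Shown are the stretches with the matches upstream of the start in the 4 genes that were called below and have a window, and in Ldha, which was not called and has the most matches in a window. Each runs 5′ to 3′ on the gene's strand, and capitals mark the matches; CACGTG holds ACGTG on both strands and counts as 2.
Egln3 (chr12:54204079-54204123, minus strand): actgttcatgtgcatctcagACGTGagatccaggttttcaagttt
Hk2 (chr6:82774482-82774700, minus strand): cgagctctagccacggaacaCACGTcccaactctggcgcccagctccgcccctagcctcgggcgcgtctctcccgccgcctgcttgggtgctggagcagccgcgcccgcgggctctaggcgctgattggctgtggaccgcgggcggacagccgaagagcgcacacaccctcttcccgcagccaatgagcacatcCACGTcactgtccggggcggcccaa
Ldhb (chr6:142508059-142508103, minus strand): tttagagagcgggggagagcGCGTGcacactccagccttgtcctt
Adm (chr7:110627547-110627627, plus strand): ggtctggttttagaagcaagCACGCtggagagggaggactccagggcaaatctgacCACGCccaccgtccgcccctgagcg
Ldha (chr7:46845639-46845794, plus strand): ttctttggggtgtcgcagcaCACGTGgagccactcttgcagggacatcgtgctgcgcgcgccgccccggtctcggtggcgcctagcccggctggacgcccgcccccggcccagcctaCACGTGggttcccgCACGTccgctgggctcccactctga
The matches of Hk2 and Egln3, which were higher in Ret null gut, and of Ldhb and Adm, which were lower, are taken up beside their values below.

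Most of the 34 genes differed little between genotypes, as did most tested lines. In Ret null gut 4 were higher (Gm5506, Egln3, Ndrg1 and Hk2) and 3 were lower (Ldhb, Epas1 and Adm) (authors' deposited table, q under 0.05), and 27 did not pass. The 7 called are 20.6% of the 34, against 14.6% of all tested lines; by direction 8.88% of all tested lines were called lower and 5.69% higher. The genes differed by under 1.2-fold in 24 of 34 cases (70.6%), against 71.5% of all tested lines. Where either genotype reached 5 FPKM, 75.9% of 29 genes differed by under 1.2-fold, against 80.7% of tested lines. At that level 20.7% of the genes were called, against 12.5% of tested lines. On the log2(FPKM + 1) scale the median change of the 34 genes was 0.05, against 0.01 over all tested lines. By role, 3 of 23 genes of glucose uptake, glycolysis and pyruvate fate were called (13%, against 14.6% of all tested lines). Of the 11 genes of hypoxia sensing and response, 4 were called (36.4%). Whether these shares differ was not tested.

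The q-values in the authors' deposited table do not follow from the standard errors given after ±, which are implied by the authors' test statistic and ran from 0.162 to 0.689 over the 34 genes (log2 scale). When p was instead read from that statistic as a standard normal deviate and adjusted over the tested lines (the normal p below), Ldhb stayed lower and Gm5506 and Egln3 stayed higher, while Hk2, Epas1, Adm and Ndrg1 did not pass. In that way 4.5% of all tested lines passed, 2.78% lower and 1.72% higher. Among the 23 genes of glucose uptake, glycolysis and pyruvate fate 1 was lower and 1 higher with the normal p. Among the 11 genes of hypoxia sensing and response 0 were lower and 1 higher.

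**Figure D1:**
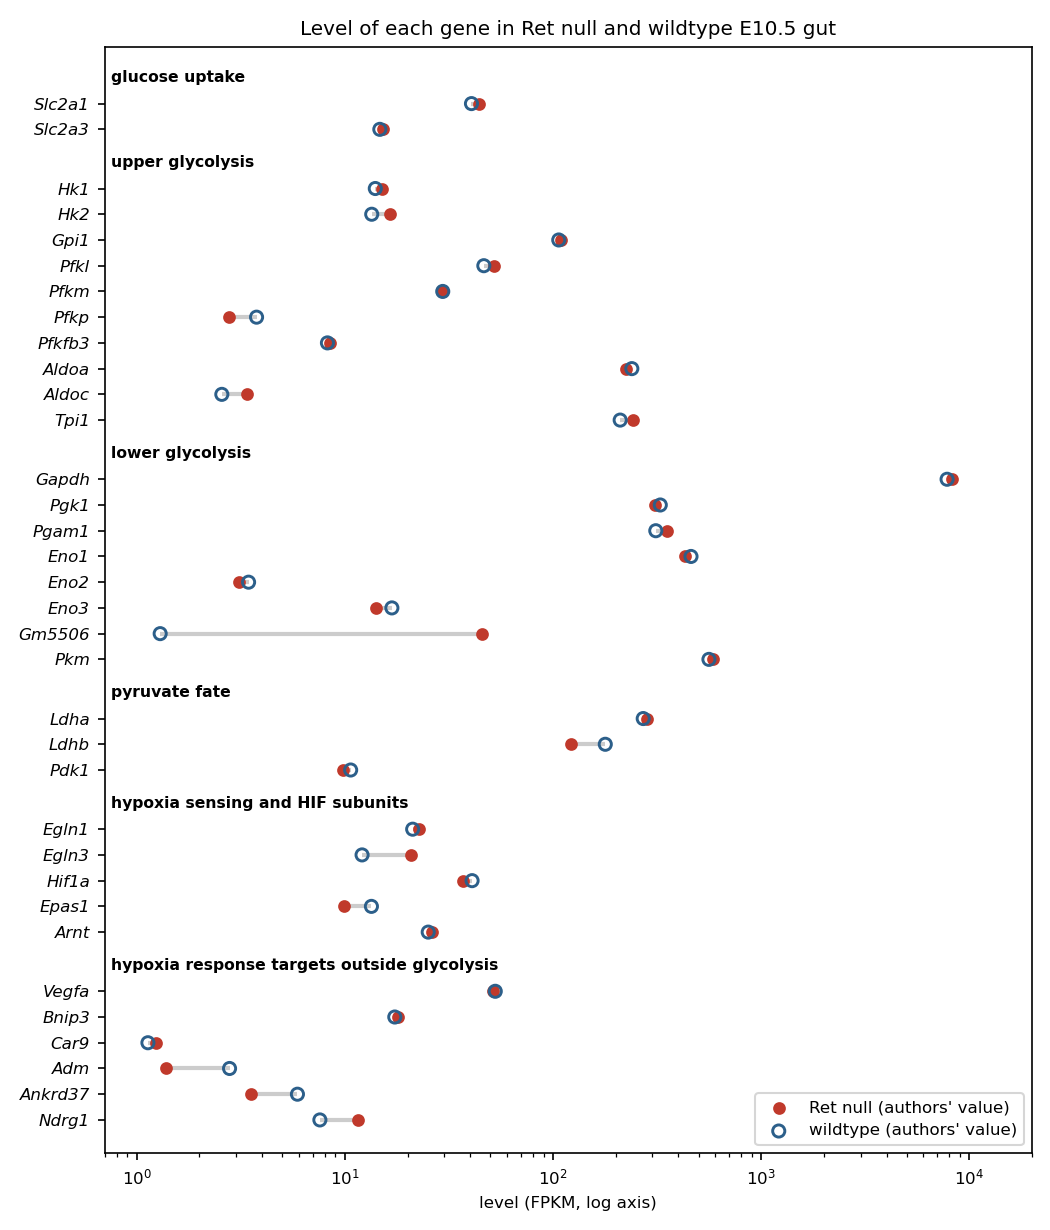
Level of each of the 34 genes in Ret null (filled) and wildtype (open) gut, in FPKM on a log axis, 1 authors' value per genotype, grouped by role. The symbols nearly coincide for most genes; Gm5506 lies at 45.4 FPKM in Ret null and 1.29 FPKM in wildtype gut.

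**Figure D2:**
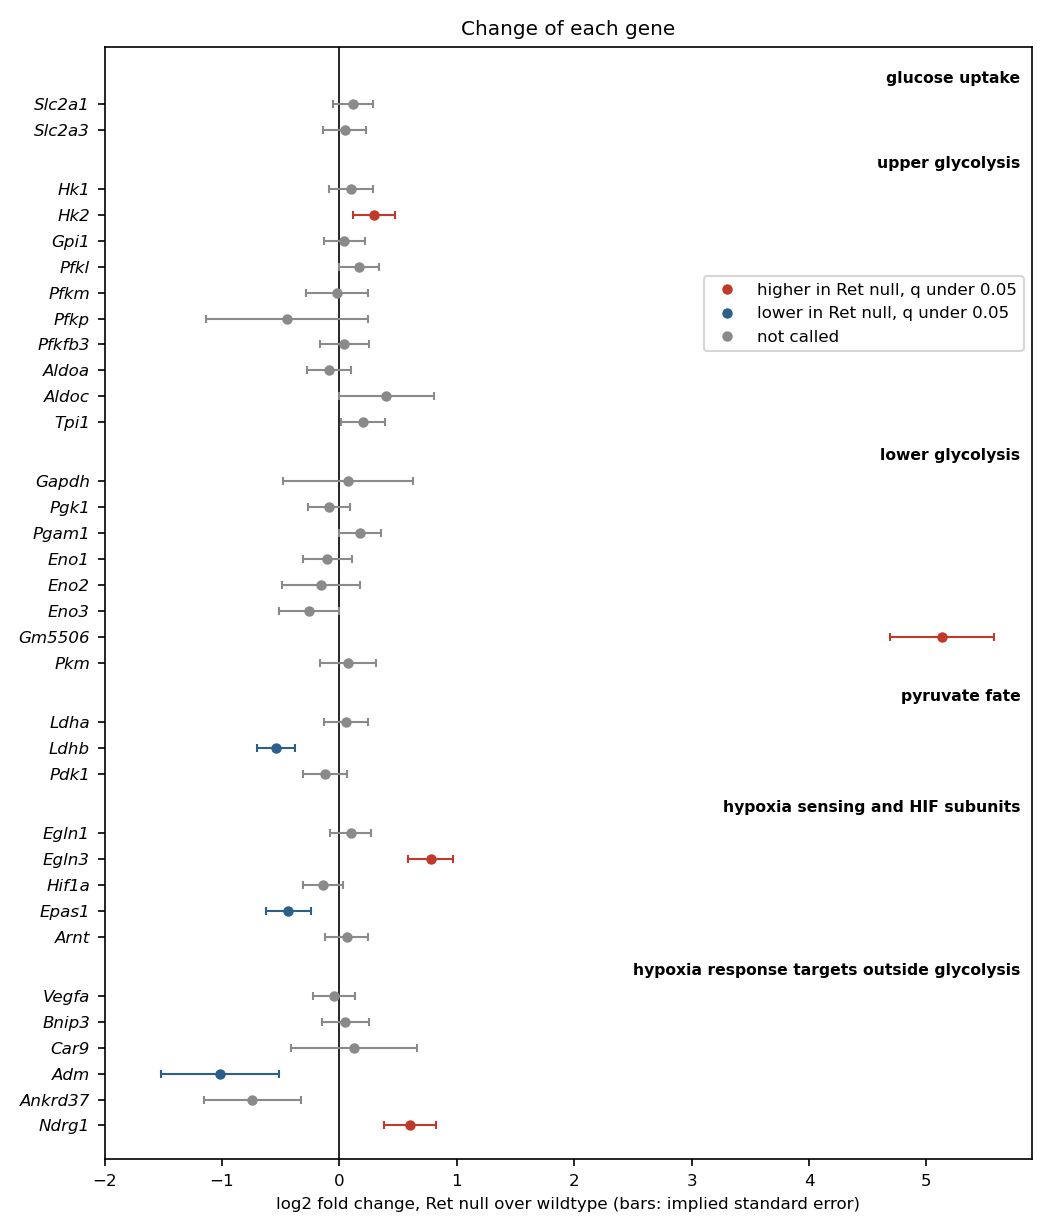
Log2 fold change of each gene, Ret null over wildtype, with the implied standard error as bars; red and blue mark genes called higher and lower by the authors' q. Gm5506 stands at 5.13, and every other gene lies between -1.02 and 0.78.

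Neither gene of glucose uptake was called; by the authors' unadjusted Cuffdiff p under 0.05 and by the normal p the counts were also 0. Slc2a1, encoding the widely expressed transporter GLUT1, stood at 43.9 FPKM in Ret null and 40.5 FPKM in wildtype gut (log2 fold change 0.11 ± 0.17). Slc2a3, which encodes the high-affinity transporter GLUT3, stood at 15.2 FPKM in Ret null and 14.7 FPKM in wildtype gut (0.05 ± 0.18).

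Of the 10 genes of upper glycolysis, 1 rose and 0 fell (10% called, against 14.6% of all tested lines). At the authors' unadjusted Cuffdiff p under 0.05 the counts were also 1 and 0, and with the normal p none passed. Hk2, the inducible hexokinase that traps glucose as glucose 6-phosphate, stood at 16.5 FPKM in Ret null and 13.4 FPKM in wildtype gut (log2 fold change 0.29 ± 0.18, q = 0.0385 in the authors' deposited table). Its promoter window above holds 2 matches upstream of the start. Hk1, the constitutive hexokinase, stood at 14.99 FPKM in Ret null and 14.0 FPKM in wildtype gut and did not pass. Hk2 made up 52.4% of the summed FPKM of the pair in Ret null and 49.0% in wildtype gut. Among the subunits of phosphofructokinase, the committing enzyme of the pathway, the liver-type Pfkl led with 52.2 FPKM in Ret null and 46.5 FPKM in wildtype gut. The muscle-type Pfkm stood at 29.1 FPKM in Ret null and 29.5 FPKM in wildtype gut (-0.02 ± 0.26). In the same tissue the striated muscle markers were lower by a median of 2.97 on the log2 scale with 1 FPKM added. Their part in the Pfkm value was not tested. The platelet-type Pfkp stood at 2.76 FPKM in Ret null and 3.76 FPKM in wildtype gut, with the widest error of the 34 genes (-0.44 ± 0.69). Pfkfb3, which makes the allosteric activator of phosphofructokinase, stood at 8.48 FPKM in Ret null and 8.24 FPKM in wildtype gut.

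The remaining steps of upper glycolysis were carried by abundant transcripts that were not called. Gpi1, the isomerase that follows hexokinase, stood at 109.6 FPKM in Ret null and 106.5 FPKM in wildtype gut. Aldoa, the main aldolase, stood at 225 FPKM in Ret null and 239 FPKM in wildtype gut (log2 fold change -0.09 ± 0.18). Aldoc, an aldolase known from brain, stood at 3.38 FPKM in Ret null and 2.56 FPKM in wildtype gut (0.40 ± 0.40), so that Aldoa made up 98.5% of the pair's FPKM in Ret null and 98.9% in wildtype. Tpi1, which interconverts the triose phosphates, stood at 242 FPKM in Ret null and 210.1 FPKM in wildtype gut (0.20 ± 0.19).

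Lower glycolysis held the highest levels. Gapdh, the dehydrogenase often used as a reference transcript, had the highest mean of all tested lines, with 8219 FPKM in Ret null and 7818 FPKM in wildtype gut (log2 fold change 0.07 ± 0.56). Its error is wide for its level, and 22.6% of the words of 75 bases in its annotated transcripts also occur in transcripts of 121 other annotated genes. Pgk1, an ATP-yielding kinase encoded on the X chromosome, stood at 308 FPKM in Ret null and 327 FPKM in wildtype gut (-0.09 ± 0.18), beside the difference in Xist given above; 52.8% of its words occur in other genes. Pgam1, a mutase, stood at 352 FPKM in Ret null and 312 FPKM in wildtype gut (0.18 ± 0.18). Pkm, the pyruvate kinase of most embryonic tissues, stood at 589 FPKM in Ret null and 561 FPKM in wildtype gut (0.07 ± 0.24). None of these passed, and 10 genes of the 34, all of glycolysis or lactate formation, lay above 100 FPKM in both genotypes. Over all 34 genes the median gene had a higher mean FPKM than 71.5% of tested lines.

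**Figure D3:**
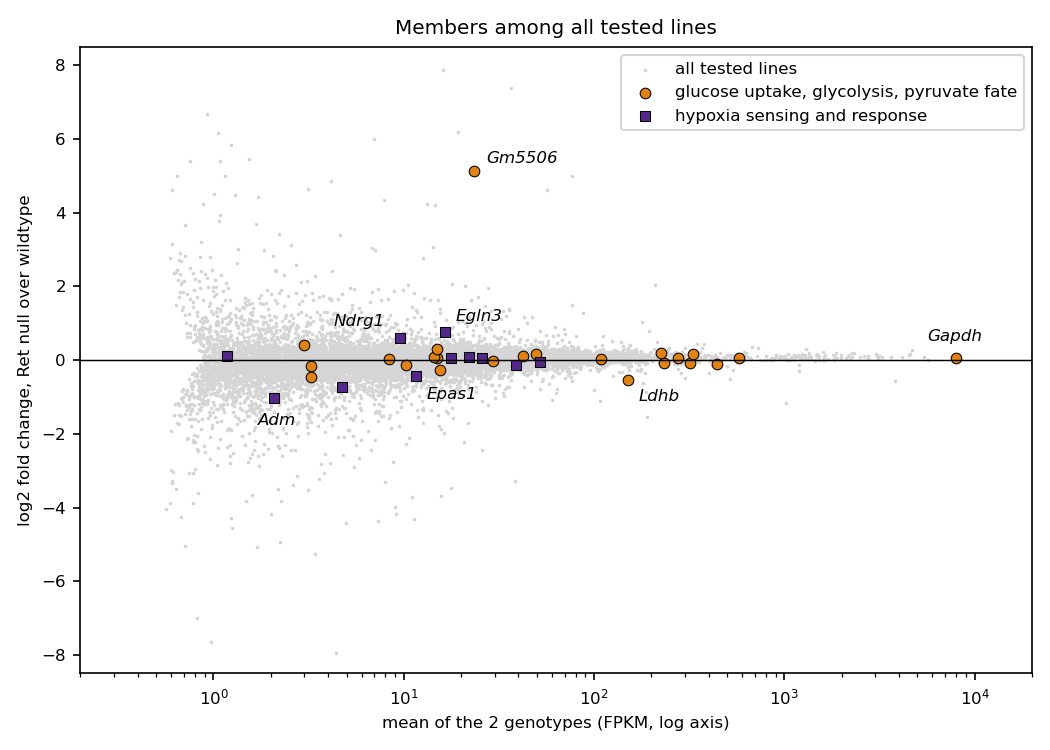
Log2 fold change, Ret null over wildtype, against the mean of both genotypes in FPKM (log axis) for all tested lines above 0 in both (grey), with the glycolysis genes as circles and the hypoxia genes as squares. Gapdh lies farthest right at a log2 fold change of 0.07, and Ldhb at -0.54 stands below the other abundant glycolysis genes.

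The enolases make phosphoenolpyruvate, and the line Gm5506 was the largest difference among the 34 genes. Eno1, the ubiquitous enolase, stood at 428 FPKM in Ret null and 460 FPKM in wildtype gut (log2 fold change -0.10 ± 0.21). Eno2, the enolase of neurons, stood at 3.09 FPKM in Ret null and 3.44 FPKM in wildtype gut (-0.16 ± 0.33). The neuronal markers, Ret among them, were lower by a median of 1.44 on the log2 scale with 1 FPKM added. Their part in the Eno2 value was not tested. Eno3, the enolase of striated muscle, stood at 14.1 FPKM in Ret null and 16.8 FPKM in wildtype gut (-0.26 ± 0.26), and neither it nor Eno2 passed. Gm5506 stood at 45.4 FPKM in Ret null and 1.29 FPKM in wildtype gut, 35.1-fold higher (5.13 ± 0.44, q = 0.000775 in the authors' deposited table, the smallest it holds).

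Gm5506 is listed in RefSeq as a synonym of Eno1b, which GENCODE M21 tags as a protein-coding retrogene, an intronless copy of Eno1. Of the 1801 words of 75 bases in the annotated Eno1b transcripts, 69.6% occur unchanged in Eno1 transcripts, and 80.6% occur in at least 1 other gene. The deposited line spans chromosome 18, 47922841 to 48107980, which is 185140 bases and has the same start and end as the GENCODE M21 gene AC150274.2, a sense-overlapping noncoding gene. Eno1b itself takes up 3078 bases inside it, 48045335 to 48048412. Reads of Eno1, Eno1b and that noncoding gene therefore cannot be told apart from the deposited value. The difference in level, Ret null minus wildtype, was 44.1 FPKM for Gm5506 and -31.6 FPKM for Eno1. Together they summed to 474 FPKM in Ret null and 461 FPKM in wildtype gut (log2 ratio 0.04), of which Gm5506 made up 9.59% in Ret null and 0.281% in wildtype.

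Among the 3 genes of pyruvate fate, Ldhb fell and the other two did not pass. Ldhb, the lactate dehydrogenase subunit that favours turning lactate into pyruvate and is known from heart, stood at 123 FPKM in Ret null and 178 FPKM in wildtype gut (log2 fold change -0.54 ± 0.16, q = 0.000775 in the authors' deposited table). It had the smallest standard error of the 34 genes, and 12.6% of its words occur in the 1 other gene Gm5514. Ldha, the subunit that favours lactate formation and a well-known HIF target, stood at 282 FPKM in Ret null and 271 FPKM in wildtype gut (0.06 ± 0.19). Ldhb thus made up 30.3% of the pair's FPKM in Ret null and 39.7% in wildtype gut. In bulk tissue, fewer cells of a type and less RNA per cell cannot be told apart, and striated muscle and neuronal markers were lower in the same Ret null value. The Ldhb window holds 1 match upstream of the start and that of Ldha 5. Pdk1, a kinase that inhibits pyruvate dehydrogenase, stood at 9.78 FPKM in Ret null and 10.7 FPKM in wildtype gut (-0.12 ± 0.19).

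**Figure D4:**
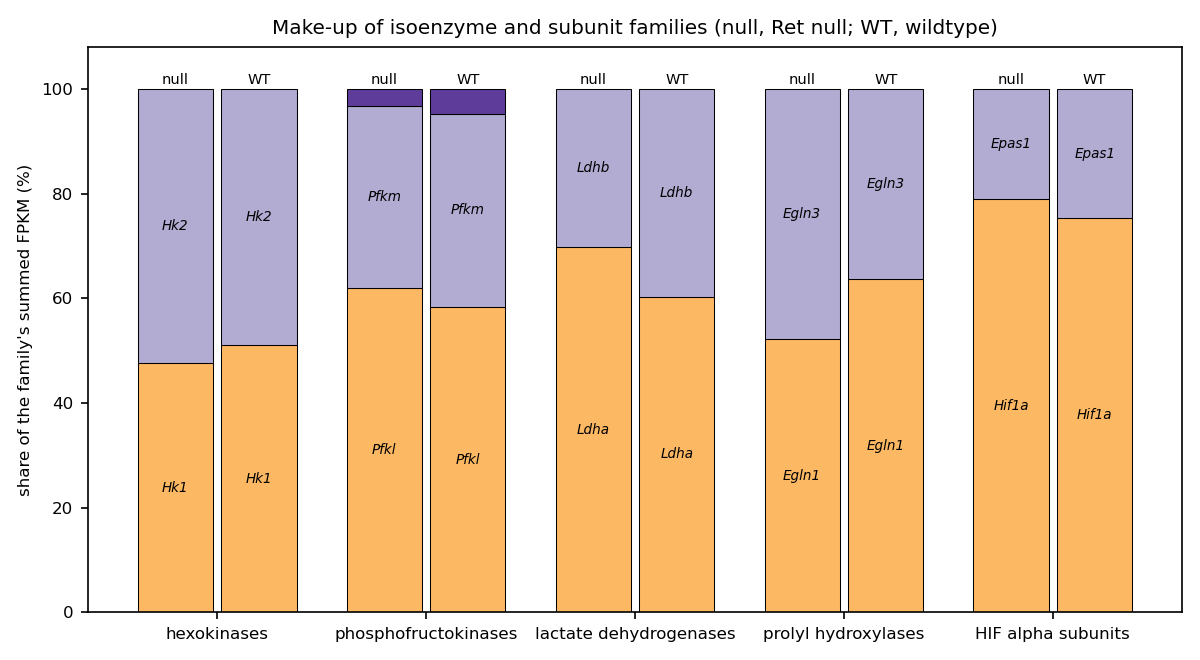
Share of each gene in the summed FPKM of the family members shown (percent), Ret null left of wildtype in each pair of bars. The dark segment is Pfkp. Relatives that belong to the other pathway lists, among them Egln2 and Hif3a, are left out of the sums. Egln2 lay above Egln3, and Hif3a above Epas1, in both genotypes. Ldhb takes 30.3% of its pair with Ldha in Ret null against 39.7% in wildtype. Egln3 takes 47.8% of its pair with Egln1 in Ret null against 36.4% in wildtype.

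Within oxygen sensing, Egln3 rose and Epas1 fell, and the other 3 genes did not pass. Egln3, a prolyl hydroxylase of HIF alpha subunits and itself a HIF target, stood at 20.7 FPKM in Ret null and 12.1 FPKM in wildtype gut (log2 fold change 0.78 ± 0.19, q = 0.000775 in the authors' deposited table). Its line matches the RefSeq gene exactly (mm10, chr12:54178981-54203874), none of its words occur in another gene, and its window holds 1 match. Egln1, the main oxygen sensor of this family, stood at 22.6 FPKM in Ret null and 21.2 FPKM in wildtype gut (0.10 ± 0.17). Egln3 made up 47.8% of the summed FPKM of the pair in Ret null and 36.4% in wildtype gut. The pair leaves out Egln2, which was more abundant than either and was not called. Egln2 stood at 43.8 FPKM in Ret null and 41.8 FPKM in wildtype gut (0.07 ± 0.17).

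Epas1, encoding HIF-2 alpha and known from endothelium, stood at 9.90 FPKM in Ret null and 13.4 FPKM in wildtype gut (log2 fold change -0.44 ± 0.19, q = 0.00263 in the authors' deposited table). Its line also matches RefSeq exactly (mm10, chr17:86753864-86833410). Endothelial markers were called lower in 3 of 7 cases with a median of -0.20 on the log2 scale with 1 FPKM added, and their part in this was not tested. Hif1a, encoding HIF-1 alpha, stood at 37.0 FPKM in Ret null and 40.8 FPKM in wildtype gut (-0.14 ± 0.17). Arnt, the shared partner, stood at 26.2 FPKM in Ret null and 25.1 FPKM in wildtype gut (0.06 ± 0.18). HIF alpha subunits are known to be set mainly by protein stability, which transcript levels do not show.

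The 6 hypoxia targets outside glycolysis went both ways: Ndrg1 rose, Adm fell and 4 did not pass. Ndrg1, a stress-responsive gene of differentiation, stood at 11.5 FPKM in Ret null and 7.58 FPKM in wildtype gut (log2 fold change 0.60 ± 0.22, q = 0.000775 in the authors' deposited table), and its line matches RefSeq exactly (mm10, chr15:66929318-66969641). Adm, encoding the vasodilator peptide adrenomedullin, stood at 1.38 FPKM in Ret null and 2.79 FPKM in wildtype gut (-1.02 ± 0.50, q = 0.0278 in the authors' deposited table), with 2 matches in its window. The change of Adm rests on low values, and with 1 FPKM added its log2 fold change was -0.67. Ankrd37, an ankyrin repeat gene induced in hypoxia, stood at 3.54 FPKM in Ret null and 5.91 FPKM in wildtype gut (-0.74 ± 0.42) and just missed the threshold with q = 0.0698 in the authors' deposited table. The remaining 3 targets differed by under 1.2-fold. Vegfa, the main angiogenic growth factor, stood at 51.2 FPKM in Ret null and 52.7 FPKM in wildtype gut (-0.04 ± 0.18). Bnip3, which promotes removal of mitochondria, stood at 18.0 FPKM in Ret null and 17.4 FPKM in wildtype gut (0.05 ± 0.20). Car9, a carbonic anhydrase that responds sharply to HIF-1 in many cell lines, stood at 1.23 FPKM in Ret null and 1.13 FPKM in wildtype gut (0.12 ± 0.54).

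The other genes of these pathways were taken from 9 textbook lists. Of 117 tested members 10 were called lower and 9 higher, 16.2% against 14.6% of all tested lines, and on the log2(FPKM + 1) scale their median change was 0.04. The 16 genes of the tricarboxylic acid cycle, 8 of the pentose phosphate pathway, 9 tested transporters of glucose and lactate and 4 tested genes of gluconeogenesis held 0 calls by the authors' Cuffdiff q. Of all 13430 tested lines, 1814 were lower and 1331 higher at the authors' unadjusted Cuffdiff p under 0.05. At that p the cycle had 0 lower and 2 higher, and the pentose phosphate pathway 0 and 3. The transporters had 1 and 1, and gluconeogenesis 0 and 3. With the normal p no gene of these lists passed. Their most abundant members were Mdh2, malate dehydrogenase of mitochondria, at 174 FPKM in Ret null and 165 FPKM in wildtype gut, the transketolase gene Tkt at 94.4 FPKM in Ret null and 81.2 FPKM in wildtype, Bsg, a chaperone of lactate transporters, at 218 FPKM in Ret null and 211 FPKM in wildtype, and Pck2, mitochondrial phosphoenolpyruvate carboxykinase, at 18.7 FPKM in Ret null and 15.9 FPKM in wildtype. All 16 genes of the cycle differed by under 1.2-fold.

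Isoenzymes known from particular tissues were among the genes called. Of 13 tested other isoenzymes and side enzymes of glycolysis, 2 rose and 1 fell (23.1% called, against 14.6% of all tested lines). With the normal p 1 was higher (Pklr) and 0 lower, where 4.5% of all tested lines passed. Whether these shares differ was not tested. Pklr, the pyruvate kinase of liver and red cells, stood at 4.66 FPKM in Ret null and 0.783 FPKM in wildtype gut (log2 fold change 2.57 ± 0.48, q = 0.000775 in the authors' deposited table), where the hepatic markers summed to 349 FPKM in Ret null and 33.8 FPKM in wildtype. Hkdc1, a hexokinase family member, stood at 1.91 FPKM in Ret null and 0.710 FPKM in wildtype gut (1.43 ± 0.47, q = 0.000775 in the authors' deposited table). Pgam2, the mutase of muscle, stood at 1.97 FPKM in Ret null and 3.77 FPKM in wildtype gut (-0.94 ± 0.49, q = 0.0498 in the authors' deposited table), where the striated muscle markers summed to 35.1 FPKM in Ret null and 304 FPKM in wildtype. In glycogen metabolism 2 of 13 tested genes fell and 1 rose (23.1% called, against the same 14.6%). With the normal p 1 was lower (Pygm) and 0 higher. Pygm, the glycogen phosphorylase of muscle, stood at 2.14 FPKM in Ret null and 4.45 FPKM in wildtype gut (-1.06 ± 0.34, q = 0.000775 in the authors' deposited table). Pygl, that of liver, stood at 12.4 FPKM in Ret null and 9.06 FPKM in wildtype gut (0.46 ± 0.22, q = 0.0042 in the authors' deposited table). Among 13 tested genes of pyruvate entry into mitochondria 1 was called (7.69%). The regulator of pyruvate dehydrogenase phosphatase, Pdpr, fell to 2.34 FPKM in Ret null, against 5.05 FPKM in wildtype gut (-1.11 ± 0.35, q = 0.000775 in the authors' deposited table). Pdpr passed with the normal p too.

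Most other genes of the HIF system differed by under 1.2-fold, while its other targets went both ways. Of 12 tested regulators and partners of HIF 1 rose and 11 did not pass (8.33% called, against 14.6% of all tested lines). Of the 12, 91.7% differed by under 1.2-fold, against 80.7% of tested lines at 5 FPKM or more. Whether these shares differ was not tested. The gene that rose was Hif3a, an alpha subunit with inhibitory forms, with 19.3 FPKM in Ret null and 14.7 FPKM in wildtype gut (log2 fold change 0.39 ± 0.18, q = 0.00263 in the authors' deposited table). Hif3a did not pass with the normal p or with a 1.5-fold minimum. Of 29 tested other hypoxia targets 6 fell and 5 rose (37.9% called, against 14.6% of all tested lines), with a median of -0.08 with 1 FPKM added. Trf, encoding the iron carrier transferrin and also in the hepatic list, stood at 34.1 FPKM in Ret null and 11.0 FPKM in wildtype gut (1.63 ± 0.21). Car12, a carbonic anhydrase, stood at 1.01 FPKM in Ret null and 2.43 FPKM in wildtype gut (-1.26 ± 0.40), and Igfbp3, an IGF-binding protein gene, at 58.6 FPKM in Ret null and 81.5 FPKM in wildtype (-0.48 ± 0.17). Each of these had q = 0.000775 in the authors' deposited table. The other falls, named after their values were seen, were Stc2 (-0.97), Stc1 (-0.69), Ddit4 (-0.40) and Plod2 (-0.30), and the other rises Ak4 (0.43), Lox (0.39), Tfrc (0.35) and Zfp395 (0.33). With the normal p 1 of the 29 was lower and 1 higher, where 2.78% of all tested lines passed lower and 1.72% higher.

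**Figure D5:**
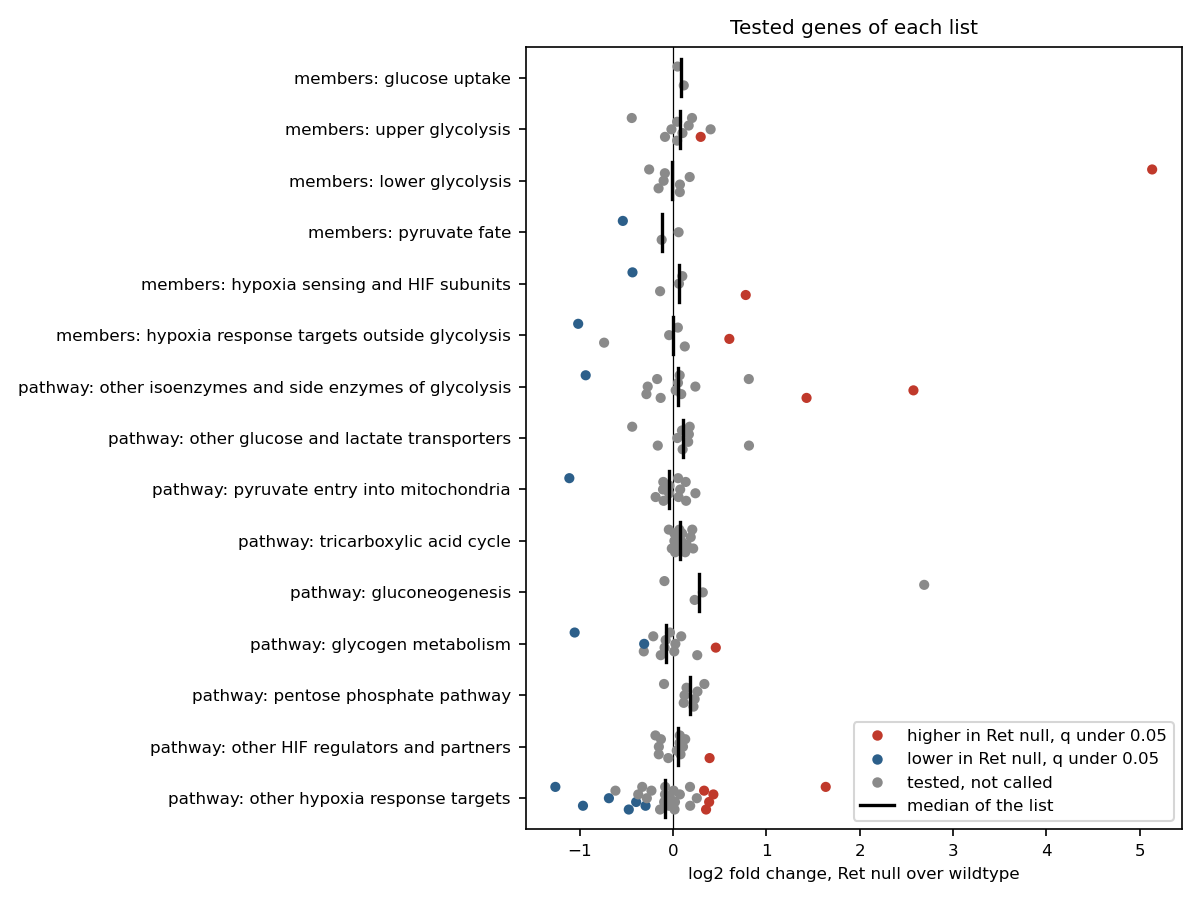
Log2 fold change, Ret null over wildtype and without added FPKM, of each tested gene by list; labels starting with "members" are the 34 genes and those starting with "pathway" the other genes, and black bars are medians. The genes of the tricarboxylic acid cycle lie between -0.05 and 0.21, while hypoxia targets spread to both sides.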

How the data were processed

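Polyadenylated RNA of whole embryonic gut was sequenced from 3 Ret null and 3 wildtype samples. Per the submitters' processing notes, Picard, TopHat2, Cufflinks and Cuffdiff were used with build mm10; the sources used here give no versions, settings or annotation. The deposited table holds 1 FPKM value per gene and genotype, made by the authors from the samples of that genotype, so there is no value per sample and depth is unknown. The p-value, the q-value and the test statistic, a score, are the authors' deposited results per the file headers. The letters w and h heading the genotypes were taken to mean wildtype and homozygous, and Ret is near 0 in the column so read.

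Of 23234 lines, 1 with 2 records run together was not used. A gene was called where the authors tested it and the deposited q was under 0.05. Each log2 fold change was computed again from both FPKM values. The standard error after each is its size divided by the authors' test statistic. The normal p, an alternative, reads that statistic as a standard normal deviate, adjusted by the Benjamini-Hochberg method over the tested lines, leaving out 8 with no finite statistic. The normal p could not be checked against values per sample. Medians of lists use log2(FPKM + 1). Other alternatives were q under 0.01 and 0.1, filters at 1 and 5 FPKM, a 1.5-fold minimum, centring, other pseudocounts (0.1 FPKM or none), leaving out Eno1 and Gm5506, and the motif ACGTG alone.

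The genes, pathway lists, marker lists and tests were chosen with earlier results of these data known. Genes named beyond the 34 were, in each pathway list, up to 3 called members by smallest q and then largest change, or, with none called, the member with the highest mean, and in each marker list up to 2 by the same order; others are said to have been named after their values were seen. A few genes that this rule picks are not reported here. Tigar matched no line. Promoters came from RefSeq on GRCm38.p6 (the build mm10) and transcripts from GENCODE M21, read as words of 75 bases, the read length of the series. The deposited starts count from 0 and were raised by 1. Computations used Python 3.11.15, numpy 2.4.6, pandas 2.3.3, scipy 1.17.1 and matplotlib 3.10.9.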

Additional observations from a re-analysis of the deposited data

How the results depend on the processing

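No paired analysis was possible because the table holds 1 value per genotype and none per sample, and for the same reason no sample could be left out. The 3 falls and 4 rises among the 34 genes held at a minimum of 1 FPKM; at q under 0.01 they were 2 and 3 (6.1% and 3.72% of all tested lines), and at q under 0.1 they were 4 and 4 (10.6% and 6.96%). A 1.5-fold minimum left 1 fall (Adm) and 3 rises (5.23% and 3.4% of all tested lines). At 5 FPKM or more 2 falls (Epas1 and Ldhb) and 4 rises remained, beside 7.31% and 5.23% of the tested lines at that level. The normal p, centred on the median of expressed lines or not, left 1 fall (Ldhb) and 2 rises (Egln3 and Gm5506). In the other pathway lists, 10 falls and 9 rises became 6 and 3 with the 1.5-fold minimum and 3 and 2 with the normal p, centred or not, and at 5 FPKM or more 5 falls and 7 rises remained as counts. A stricter q, a fold minimum or an FPKM minimum can only lower these counts, by construction; for the normal p the cause was not tested. The median of the 34 genes ran from 0.04 to 0.05 over all alternatives. ACGTG alone gave 50% of windows in place of 79.5%. Depth is unknown.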

Other observations

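Several relatives of the 34 genes that mark single tissues were listed too low to be tested by the authors. Gys2, the glycogen synthase of liver, was listed at 0.619 FPKM in Ret null and at 0 in wildtype gut. Pgk2 and Ldhc, known from the male germ line, were listed at 0 in Ret null gut, with 0 and 0.0477 FPKM in wildtype. Epo, the red cell hormone induced in hypoxia, stood at 0.269 FPKM in Ret null and 0.160 FPKM in wildtype gut. These genes were named after their values were seen, and no test bears on them.

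Fbp2, the fructose bisphosphatase of muscle, stood at 1.17 FPKM in Ret null and 0.181 FPKM in wildtype gut (log2 fold change 2.69 ± 1.14, q = 0.077 in the authors' deposited table). Its error is wide. The striated muscle markers were lower, and their part in the Fbp2 value was not tested.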
